A study of Mus musculus with 32 samples.

Results

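The genes described here code for proteins of the splicing machinery and for the RNA-binding proteins around it. They were taken as all probes of the array whose gene symbol begins with Hnrp or Hnrnp (heterogeneous nuclear ribonucleoproteins, hnRNPs), Sfrs or Srsf with a number (SR proteins), Snrp (Sm and U snRNP proteins), Sf3a or Sf3b (splicing factor SF3) or Lsm with a number (Sm-like proteins). The rule found 67 of the 18138 gene symbols in the annotation (63 current genes), with 103 of the 25697 probes. RNA came from the frontal cortex (FCtx) of 32 female F1 mice, with 1 array per mouse (Illumina MouseRef-8 v2.0). The labels give the strain as C57BL/6J x FVB/NJ F1, whereas the Methods name reciprocal crosses, and no age of the mice at sacrifice is given. The 20 ethanol-treated mice chose between 20% ethanol and water in limited sessions in the dark phase over 20 days, and the labels of the 12 controls say no more than that they are controls. Each chip carried 8 arrays, all of ethanol-treated mice on chips 1 and 2 and all of controls on chip 4. On chip 3 the odd positions (the first, the third and so on) were taken by 4 ethanol-treated mice and the even positions by 4 controls. Treatment and chip therefore cannot be told apart between chips, and treatment and odd or even position cannot be told apart on chip 3.

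The spliceosome removes introns from pre-mRNA. Its core is built of small nuclear ribonucleoproteins (snRNPs), in which a ring of Sm proteins encloses each of the major U RNAs other than U6, while U6 carries a ring of Lsm proteins. The SF3 complexes belong to the U2 snRNP and hold it at the branch site. SR proteins mostly bind exonic enhancers and favor inclusion of an exon, and hnRNPs coat nascent RNA and often, but not always, favor skipping. In neurons several hnRNPs also accompany mRNA to dendrites, and hnRNP A2/B1 is known for doing so in oligodendrocytes as well. Not all symbols caught by the rule belong to this machinery: Lsm12 and Lsm14a code for Sm-like proteins of the cytoplasm, and Sfrs14 and Sfrs16 are named for serine and arginine rich stretches and are not classical SR proteins.

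Every probe is an oligonucleotide of 50 bases, and several genes were read by more than 1 probe. A probe is given here by its gene and by its first base in the transcript that the annotation of the array names. The annotation gives chromosome 11 for Hnrnph1 and chromosome 17 for Hnrpm, and no build for its coordinates, so none are given. The gene of hnRNP H1, which binds runs of G, is listed under 2 spellings, and 4 of its 5 probes formed overlapping pairs that read nearly the same stretch of RNA. They are shown because agreement between such probes is a repeat of 1 site and not a separate site. Capitals mark the bases that a probe shares with its partner, 49 in the first pair and 39 in the second, and the last probe overlaps neither pair.
Hnrph1, base 535: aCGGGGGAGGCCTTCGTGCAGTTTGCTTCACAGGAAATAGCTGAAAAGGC
Hnrnph1, base 579: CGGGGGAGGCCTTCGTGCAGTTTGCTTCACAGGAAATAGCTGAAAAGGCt
Hnrnph1, base 946: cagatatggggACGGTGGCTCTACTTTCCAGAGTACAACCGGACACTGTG
Hnrnph1, base 957: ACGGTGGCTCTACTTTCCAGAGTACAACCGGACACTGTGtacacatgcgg
Hnrnph1, base 1268: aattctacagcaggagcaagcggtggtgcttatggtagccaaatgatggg

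For Hnrpm, the gene of hnRNP M, a pair of probes shared the 24 bases in capitals, and a further probe (base 2355) lay downstream. The first 30 bases are given for that probe and for those of the genes that the results turn on, Hnrnpa2b1, Hnrnph2, Lsm5 and Lsm12.
Hnrpm, base 2122: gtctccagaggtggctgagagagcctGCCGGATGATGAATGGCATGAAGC
Hnrpm, base 2147: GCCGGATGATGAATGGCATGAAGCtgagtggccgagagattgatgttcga
Hnrpm, base 2355: taatgattggggttccatttgactgtttgc
Hnrnpa2b1, base 164: gtctttctcatctcgctcggctgcgggaaa
Hnrnpa2b1, base 1340: ttaaggaaactcttatctcagtcatgcata
Hnrnph2, base 126: ccttaaggcacatacctgaagtggattttc
Lsm5, base 258: gctggttcccggaggagaagggcctgaagt
Lsm12, base 48: aagatggcggcacctccgggcgagtacttc
Lsm12, base 640: agtccacaaacagggaggactcttccagca

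Of the 103 probes, 66 (45 genes) were detected at p below 0.01 on at least 24 of the 32 arrays and were tested, 58 of them being detected on all 32. The other 37 were not tested, of which 22 were detected on no array and 15 on 1 to 20 arrays. They left 18 genes without a tested probe, among them Hnrpu, Hnrnpr, Hnrpa3, Sf3b1 and Snrpe, and a probe at background gives no level for its gene. By family, 24 of 41 hnRNP probes, 15 of 22 SR protein probes, 10 of 12 Sm and U snRNP probes, 5 of 9 SF3 probes and 12 of 19 LSM probes were tested. Per array, 67 to 71 members were detected in ethanol-treated mice and 61 to 74 in controls, and the median raw signal of the members was 876 to 1230 and 437 to 1061, respectively, the lowest being that of control 66. Over all probes, 9480 to 11544 were detected per array, and pairs of arrays correlated at 0.983 to 0.996. All differences below are ethanol minus control, on the log2 scale of the variance-stabilized and quantile-normalized values, on which a change of a dim probe is understated. In bulk tissue, fewer cells of a type and less RNA per cell cannot be told apart.

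Over all 32 arrays, a few hnRNP probes and an Lsm12 probe were higher in ethanol-treated mice and single probes of Lsm5 and Snrpd1 were lower. At an adjusted p below 0.01, 5 of the 66 members rose (7.58%) against 3.6% of all 10187 tested probes, and 2 fell (3.03%) against 4.67%. The 5 that rose were in 4 genes: Hnrnpa2b1, Hnrnph2, Lsm12 and, with 2 probes, hnRNP H1. The median difference of the members was 0.028, that of all tested probes was -0.0032. At an adjusted p below 0.1 and a fold of 1.1 or more, 14 members were higher and 4 lower, against 7.47% and 7.01% of all tested probes. With chip as a fixed block no member passed 0.01 (limma), with 11 higher and 4 lower at an unadjusted p below 0.05. All tested probes were not counted at that unadjusted threshold in this fit, so no share can be set beside these counts. Of all 10187 tested probes, only 13 were higher and 8 lower at 0.01 in that fit. Its difference is that of chip 3, the only chip with both groups. Median scaling in place of quantile normalization left 2 higher and 0 lower, against 104 and 31 of all tested probes. Over all probes it moved the share of higher among the calls from 43.5% to 77%.

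**Figure D1:**
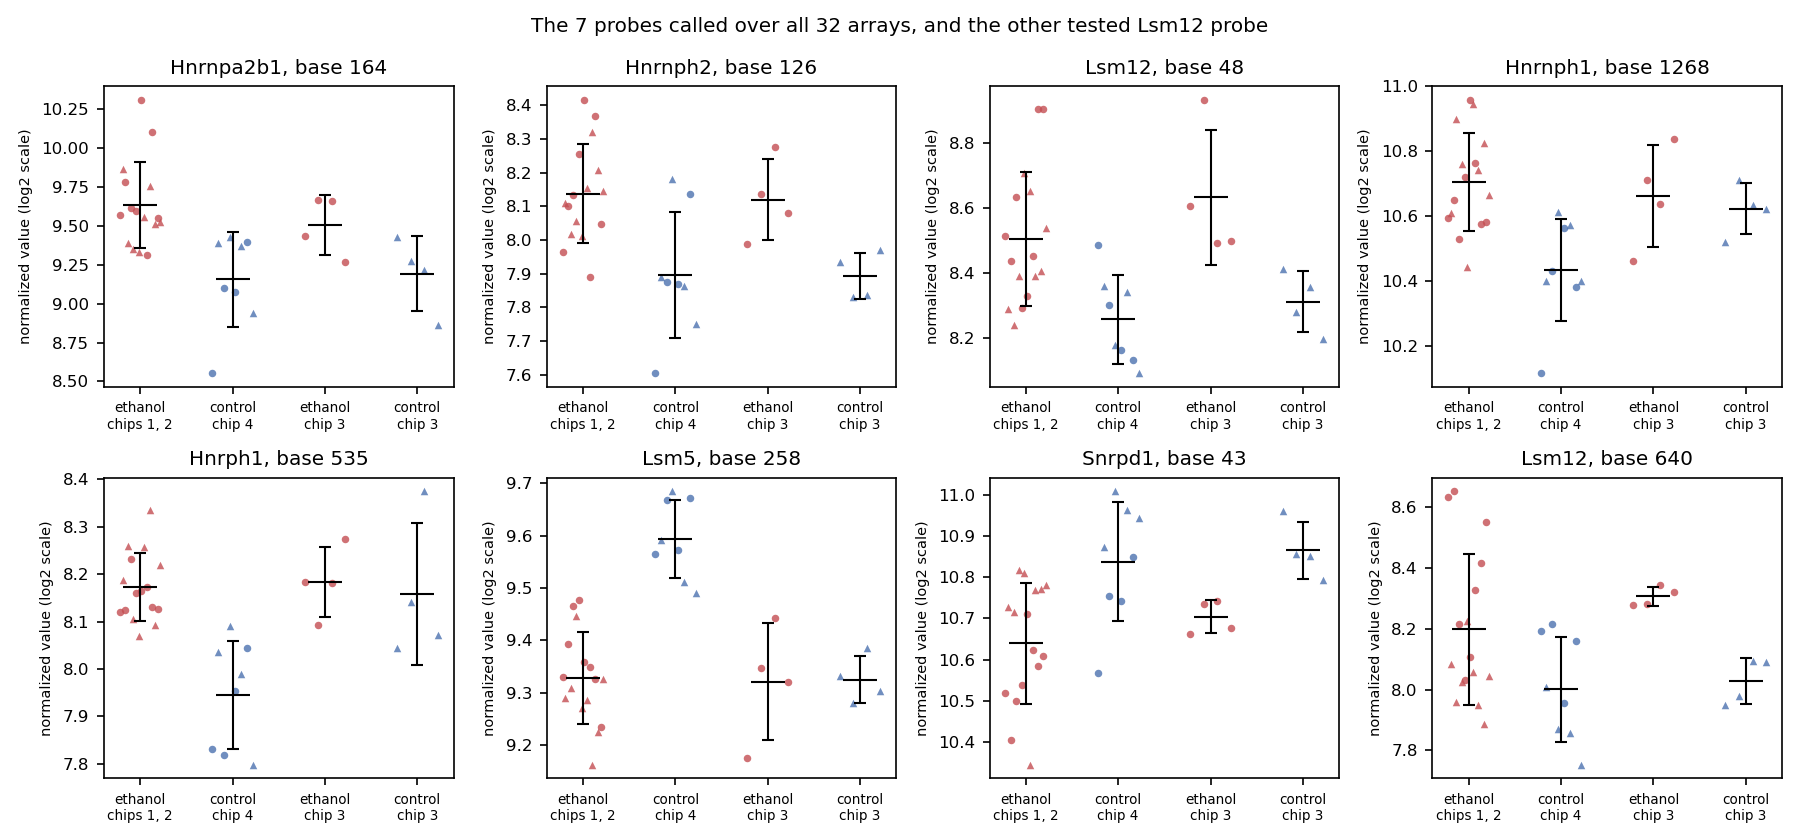
Normalized value (y axis, log2 scale) of 8 member probes in each of the 32 mice, by group and chip. Circles are odd and triangles even positions, and bars give the mean and SD. On chip 3 the 4 ethanol values lie above all 4 control values for Hnrnph2, and for both probes of Lsm12, whereas the groups of chip 3 overlap for both hnRNP H1 probes and for Lsm5.

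Hnrnpa2b1 codes for hnRNP A2/B1, a carrier of mRNA and a regulator of exon choice, and lies on chromosome 6. Its probe at base 164 had a lowest value of 9.27, a median of 9.56 and a highest value of 10.31 in the 20 ethanol-treated mice, and 8.55, 9.24 and 9.43 in the 12 controls. All 20 ethanol values were above the median of the controls, although the ranges overlapped. The difference was 0.44 ± 0.089 (SE; 1.36-fold, adjusted p = 0.00082), the largest of the 66 members in this comparison. A probe near the end of the listed transcript (base 1340), detected on 28 arrays, differed by -0.062 ± 0.039 (adjusted p = 0.27). The 2 probes correlated at -0.16 over the 32 arrays, and the gene's remaining probe (base 1275) was detected on no array. The rise thus stood at 1 of the gene's tested probes, and nothing in the files says which transcripts each of them reads.

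Hnrnph2 codes for hnRNP H2, a close relative of hnRNP H1. Values of its tested probe (base 126) ran from 7.89 over a median of 8.12 to 8.42 in ethanol-treated mice and from 7.60 over 7.87 to 8.18 in controls. Again all 20 ethanol values were above the median of the controls. The difference was 0.24 ± 0.051 (adjusted p = 0.0013). This probe is dim, being detected on 30 arrays, and the other Hnrnph2 probe was detected on none.

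All 5 probes of hnRNP H1 were higher in ethanol-treated mice, by 0.16 to 0.23, and 2 of them passed. The probe at base 1268 had a lowest, median and highest value of 10.44, 10.69 and 10.96 in ethanol-treated mice and 10.12, 10.54 and 10.71 in controls, a difference of 0.20 ± 0.053 (adjusted p = 0.0083). The probe at base 535 ran from 8.07 over 8.17 to 8.34 and from 7.80 over 8.04 to 8.37, a difference of 0.16 ± 0.041 (adjusted p = 0.0065). In both cases the highest control lay inside or above the range of the ethanol-treated mice. Without control 66, the mouse with the lowest signals, neither passed (adjusted p = 0.018 for each), which left 3 members higher. Over the 32 arrays the probes of the gene correlated with each other at 0.60 to 0.88, the highest value being that of the pair sharing 39 bases and the lowest that of the pair sharing 49, so that probes of 1 site did not always vary together.

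Among the Sm-like proteins, Lsm12 was higher and Lsm5 was lower. The Lsm12 probe at base 48 ran from 8.24 over 8.50 to 8.93 in ethanol-treated mice and from 8.09 over 8.29 to 8.49 in controls, a difference of 0.26 ± 0.062 (adjusted p = 0.0038). The Lsm12 probe at base 640 differed by 0.21 ± 0.067 (adjusted p = 0.026), and an additional Lsm12 probe was detected on no array. Lsm5 belongs to the Lsm ring of U6 and to the ring that acts in mRNA decay, and its gene lies on chromosome 6. Its values were 9.16, 9.33 and 9.48 (lowest, median and highest) in ethanol-treated mice and 9.28, 9.54 and 9.69 in controls. All 20 ethanol values were below the median of the controls, and the difference was -0.18 ± 0.042 (adjusted p = 0.0032).

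Snrpd1 codes for Sm D1, a part of the Sm ring. Its probe at base 43 ran from 10.35 over 10.69 to 10.82 in ethanol-treated mice and from 10.57 over 10.85 to 11.01 in controls. All 20 ethanol values were below the median of the controls, a difference of -0.19 ± 0.046 (adjusted p = 0.0035). A probe sharing 32 bases with it (base 25) differed by -0.17 ± 0.047 (adjusted p = 0.011).

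The medians of the families were compared with each other by no test. The median difference was 0.083 over the 24 hnRNP probes, of which 18 were above 0, and 0.054 over the 15 SR protein probes, of which 11 were. It was -0.034 over the 10 Sm and U snRNP probes and -0.021 over the 12 LSM probes, and under median scaling these became 0.0095 and 0.019, while the median of all tested probes moved from -0.0032 to 0.030, so that both families stayed below it. The 5 SF3 probes had a median of -0.085 and lay between -0.096 and -0.049, and all 5 stayed below 0 under each scaling tried, but none passed (limma; 3 at an unadjusted p below 0.05). No SR protein passed either (4 at an unadjusted p below 0.05). Of all 10187 tested probes, 3243 were at an unadjusted p below 0.05. The highest of the SR protein probes was an Sfrs5 probe (base 406) at 0.31 ± 0.088 (adjusted p = 0.013), named after its values were seen. The other tested Sfrs5 probe differed by 0.13.

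**Figure D2:**
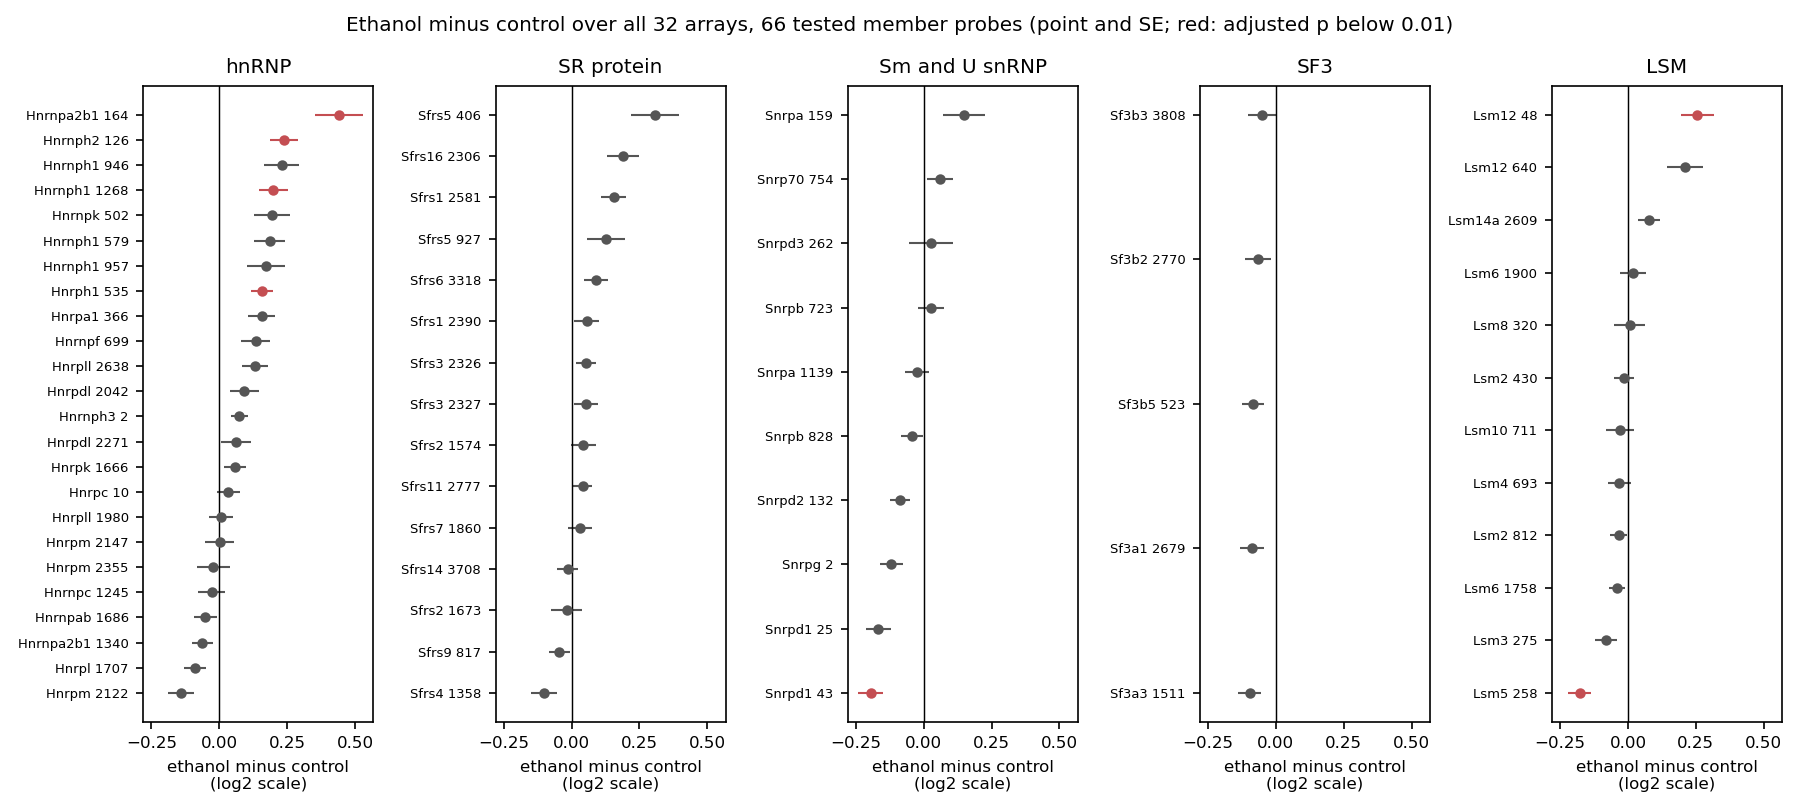
Ethanol minus control over all 32 arrays (x axis, log2 scale, with SE) for the 66 tested members, by family, each named by symbol and first base. Red points are the 7 at an adjusted p below 0.01. The differences ran from -0.19 for Snrpd1 to 0.44 for Hnrnpa2b1.

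The brightest probe of each family did not pass over all arrays. The difference was -0.027 ± 0.050 for Hnrnpc (base 1245), whose product binds nascent transcripts, and 0.16 ± 0.046 for Sfrs1 (base 2581, adjusted p = 0.016), the prototype of the SR proteins. It was -0.087 ± 0.036 for Snrpd2 (base 132), which codes for Sm D2, -0.066 ± 0.049 for Sf3b2 (base 2770) and -0.032 ± 0.041 for Lsm4 (base 693). All 5 were detected on every array. The other tested Sfrs1 probe differed by 0.056. Within a group on a chip, members had a median SD of 0.128, against 0.113 over all tested probes.

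The 2 parts of the study that share no array were then compared: chip 3 by itself, and ethanol on chips 1 and 2 against control on chip 4. On chip 3, 2 of the 66 members rose (3.03%) against 1.5% of all tested probes, a probe of Hnrpm and a probe of Lsm12, and 0 fell (limma; 5 at an unadjusted p below 0.05) against 1.75%. In both directions together, 21 members and 2741 of all tested probes were at an unadjusted p below 0.05. The 4 ethanol and 4 control values did not overlap for 10 members that were higher and 4 that were lower. Over all tested probes this held for 7.58% in each direction. Leaving out 1 array moved the count of members that rose from 2 to between 0 and 4. It was 0 without ethanol-treated mouse 47, 49 or 50 or control 54, 1 without control 52 or 55, and 4 without control 56, and without ethanol-treated mouse 50, 1 member fell. No member and no probe at all passed on chip 3 after normexp background correction, and with 4 against 4 arrays the smallest exact permutation p is 0.0286 (two-sided). Between chips, 9 members rose (13.6%) against 5.93% of all tested probes and 3 fell (4.55%) against 5.9%, and by the looser threshold 16 were higher and 6 lower, against 11.8% and 11.3%.

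Markers of cell types and of other tissue also differed, with 64 tested probes in 9 lists. Over all 32 arrays 3 were higher (4.69%) and 3 lower (4.69%). Those higher were Aqp4 of astrocytes (0.51, adjusted p = 0.00097), a probe of Mbp of oligodendrocytes (0.59, adjusted p = 0.0088) and Etv1 of the cortex list (0.25, adjusted p = 6.3e-05), and those lower were Slc17a7 of excitatory neurons (-0.26, adjusted p = 0.0043) and Tbr1 and Fezf2 of the cortex list (-0.34 and -0.16, adjusted p = 0.00029 and 0.0063). The medians of the lists over all arrays were -0.0071 for astrocytes, -0.077 for oligodendrocytes, -0.0066 for neurons and -0.0098 for cortex. The further Mbp probes differed by -0.15 and -0.061 (adjusted p = 0.12 and 0.70). On chip 3, 7 of the 64 marker probes were higher (10.9%) and 5 lower (7.81%). Of 6 tested probes of the olfactory bulb list, 4 rose, with a median difference of 0.66, and the mean of the list was 9.01 to 9.23 in the 4 ethanol-treated mice and 8.17 to 8.72 in the 4 controls. None of these probes passed between chips, where the median was 0.026. Of 16 oligodendrocyte probes, 3 fell on chip 3 (median -0.30), with list means of 9.66 to 9.86 in ethanol-treated mice and 9.80 to 10.36 in controls. The astrocyte markers Aqp4 and Slc1a3 rose there by 0.55 and 0.35 (adjusted p = 0.0034 and 0.0049). Slc17a7 fell by 0.46 (adjusted p = 0.00095) and Tbr1 by 0.52 (adjusted p = 0.0049). The endothelial marker Cldn5 rose on chip 3 by 0.45 (adjusted p = 0.0022), in a list of 5 probes with a median of 0.026. Between chips Cldn5 differed by -0.30 (adjusted p = 0.00059). On chip 3 the mean of the 9 astrocyte probes was 10.25 to 10.32 in ethanol-treated mice and 10.14 to 10.22 in controls, that of the 5 neuron probes 11.17 to 11.23 and 11.27 to 11.37, and that of the 6 cortex probes 8.71 to 8.81 and 8.75 to 8.83. The cortical markers Fezf2, Tbr1 and Cux2 each had a probe detected on all 32 arrays. Between chips, 3 of the 64 marker probes were higher (4.69%) and 5 lower (7.81%), against 5.93% and 5.9% of all tested probes. Those higher were probes of Aqp4, Mbp and Etv1. Those lower were probes of Glul, Cldn5, Tbr1 and Fezf2 and a different Mbp probe. The part of the markers in the differences of members, on chip 3, between chips or over all arrays, was not tested.

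Over the 66 members, the differences on chip 3 and between chips correlated at 0.15, and 35 (53%) had the same sign. Over all tested probes these values were 0.090 and 50.9%. At an adjusted p below 0.1 in both, 3 members were higher (4.55%), against 1.46% of all tested probes, and 2 were lower (3.03%), against 2.09%. The 3 that were higher were the probes of Hnrnpa2b1 (base 164), Hnrnph2 and Lsm12 (base 48), and the 2 that were lower were the overlapping probes of Snrpd1.

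**Figure D3:**
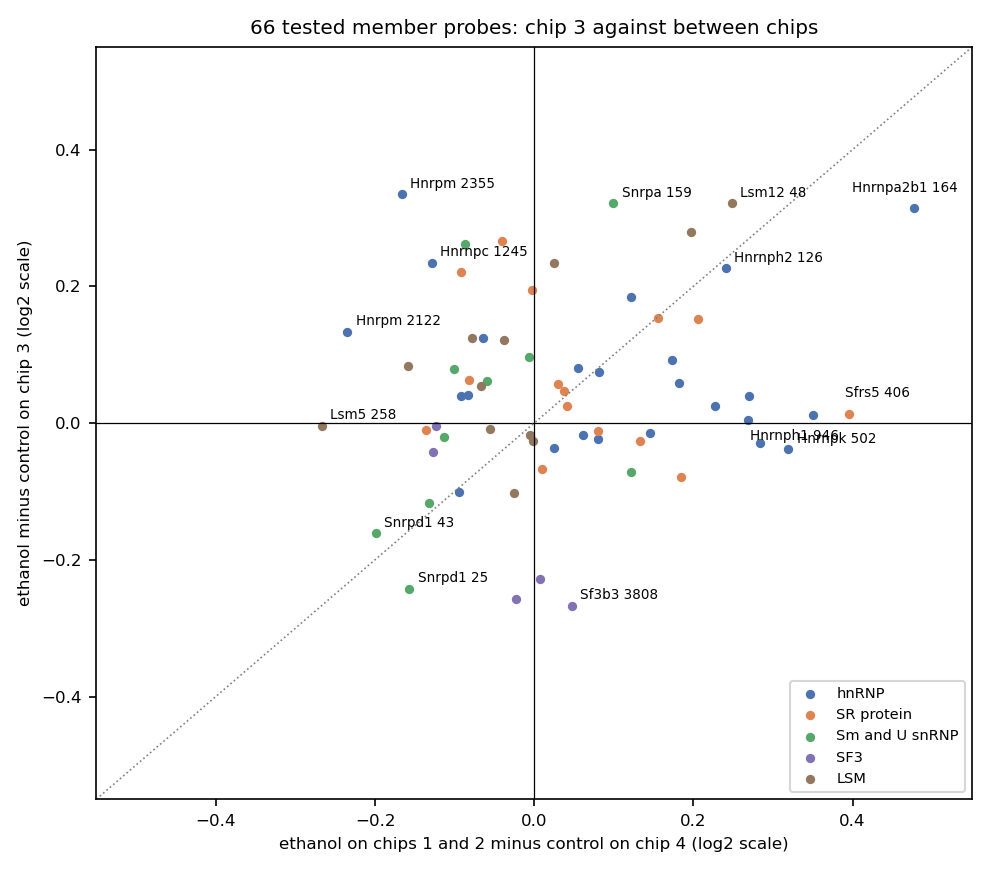
Difference on chip 3 (y axis) against the difference between chips (x axis) for the 66 tested members, both on the log2 scale, colored by family. The dotted line marks equal differences. Hnrnpa2b1, Hnrnph2, Lsm12 and Snrpd1, all at an adjusted p below 0.1 in both comparisons, lie near it. The probes of hnRNP H1, Sfrs5, Hnrnpk and Lsm5 lie near 0 on the y axis. Hnrpm and Hnrnpc lie on opposite sides of 0 on the 2 axes.

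On chip 3, Hnrnpa2b1 (base 164) had values of 9.44, 9.66, 9.66 and 9.27 in ethanol-treated mice and 9.43, 9.27, 9.22 and 8.86 in controls. Of the ethanol values 3 were above every control. The difference was 0.31 ± 0.11 on chip 3 (adjusted p = 0.069; exact permutation p = 0.086, two-sided) and 0.48 ± 0.11 between chips (adjusted p = 0.002). Hnrnph2 had 7.99, 8.14, 8.27 and 8.08 in ethanol-treated mice and 7.93, 7.83, 7.84 and 7.97 in controls of chip 3. The groups did not overlap, and the difference was 0.23 ± 0.068 there (adjusted p = 0.043) and 0.24 ± 0.065 between chips (adjusted p = 0.0077). Lsm12 (base 48) had 8.61, 8.93, 8.49 and 8.50 against 8.41, 8.28, 8.36 and 8.20. These groups did not overlap either, and the difference was 0.32 ± 0.087 on chip 3 (adjusted p = 0.027) and 0.25 ± 0.074 between chips (adjusted p = 0.015). The 3 had been picked for being higher in both parts, so similar differences follow in part from that choice. For none of the 3 did the 2 differences differ from each other by the test of that contrast (adjusted p = 0.66, 0.96 and 0.79). The controls of chips 3 and 4 differed by 0.037, -0.0034 and 0.054.

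The probes of hnRNP H1 behaved otherwise: they were higher between chips and near 0 on chip 3. All 5 rose between chips, by 0.23 to 0.35, with adjusted p-values between 0.00025 and 0.0072. On chip 3 they differed by -0.029 to 0.040. The probe at base 1268 had 10.46, 10.71, 10.64 and 10.84 in the ethanol-treated mice and 10.52, 10.71, 10.64 and 10.62 in the controls of chip 3, with full overlap. The controls of chip 3 were higher than those of chip 4 by 0.19 to 0.39 at these 5 probes, which passed for the probe at base 946 (0.39, adjusted p = 0.0031). That comparison and the one between chips share the controls of chip 4. The controls of chip 3 were all at even positions and those of chip 4 at odd and even ones. Chip and position therefore cannot be told apart in the comparison of the controls. The test of the chip 3 difference against the difference between chips did not pass for any of the 5 (differences of -0.34 to -0.20, adjusted p between 0.071 and 0.21).

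**Figure D4:**
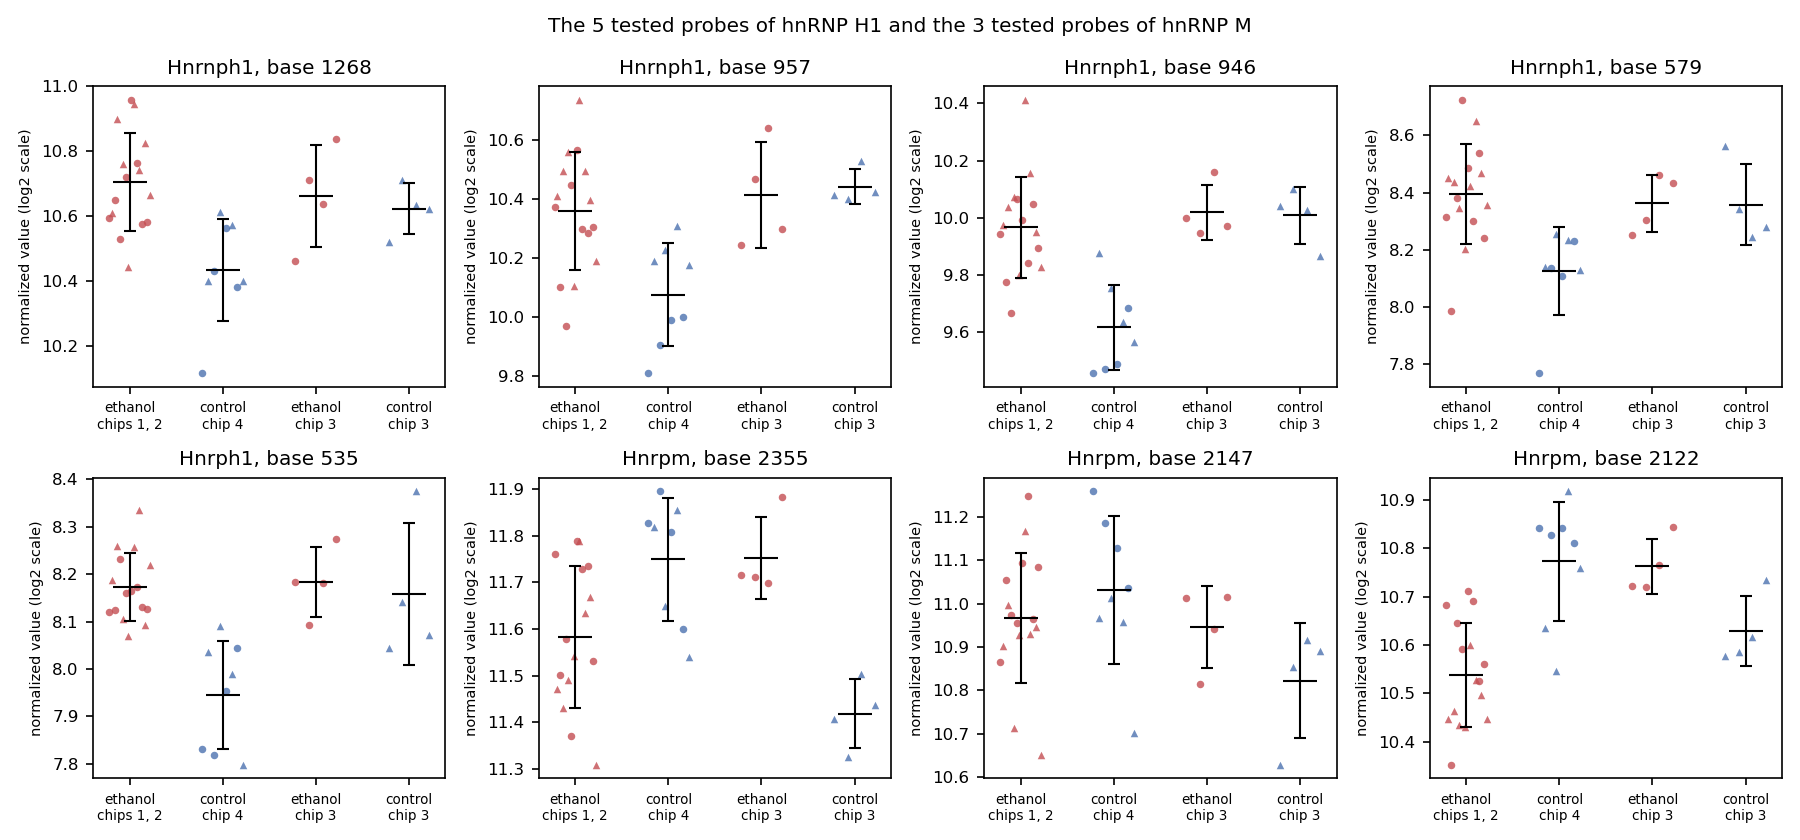
Normalized value (y axis, log2 scale) of the 5 tested probes of hnRNP H1 and the 3 of hnRNP M in each mouse, by group and chip, with mean and SD. Circles are odd and triangles even positions. For hnRNP H1 the controls of chip 4 are the lowest of the 4 sets and the controls of chip 3 are level with the ethanol-treated mice, whereas for hnRNP M the controls of chip 3 lie below those of chip 4.

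Further members had this pattern, and those outside the rule for named genes were chosen after their values were seen. For none of them did the test of the chip 3 difference against that between chips pass 0.01 (limma). Here too the comparison of the controls shares those of chip 4 with the comparison between chips and mixes chip with odd or even position. Sfrs5 codes for an SR protein, and its probe at base 406 rose by 0.40 ± 0.10 between chips (adjusted p = 0.0049) and differed by 0.014 ± 0.11 on chip 3. The other tested Sfrs5 probe differed by 0.18 between chips and -0.079 on chip 3. Hnrnpk codes for hnRNP K, which binds runs of C. Its probe at base 502 rose by 0.32 ± 0.071 between chips (adjusted p = 0.0017) and differed by -0.038 ± 0.063 on chip 3. At this probe the controls of chip 3 were above those of chip 4 by 0.41 (adjusted p = 0.0031). The gene's other tested probe differed by 0.080 between chips and -0.023 on chip 3. Lsm5 fell by 0.27 ± 0.040 between chips (adjusted p = 2.8e-05). On chip 3 it had 9.18, 9.35, 9.44 and 9.32 in ethanol-treated mice and 9.33, 9.28, 9.38 and 9.30 in controls, a difference of -0.0037 ± 0.064. The controls of chip 3 were below those of chip 4 by 0.27 at this probe (adjusted p = 0.0013), and Lsm3, of the same ring, fell between chips by 0.16 ± 0.041 (adjusted p = 0.0051) and was 0.22 lower in the controls of chip 3 than in those of chip 4 (adjusted p = 0.0079).

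Hnrpm went the other way. Its probe at base 2355 had 11.72, 11.71, 11.70 and 11.88 in the ethanol-treated mice of chip 3 and 11.41, 11.33, 11.50 and 11.44 in the controls. The groups did not overlap, and the difference of 0.33 ± 0.064 (adjusted p = 0.0038) was the largest of the members on that chip. Between chips it was -0.17 ± 0.060 (adjusted p = 0.043), and over all arrays -0.022 ± 0.059. The 2 differences were unequal (0.50 ± 0.11, adjusted p = 0.0038), as they were for the probe at base 2122, with 0.13 on chip 3 against -0.23 between chips (0.37 ± 0.088, adjusted p = 0.0073). Among all tested probes, 1.35% passed this test in that direction and 1.37% in the other. Of the members 2 (3.03%) and 0 did, with 8 in the second direction at an unadjusted p below 0.05. In both directions together, 19 members and 2523 of all tested probes were below that. The controls of chip 3 were lower than those of chip 4 at base 2355 by 0.33 (adjusted p = 0.0047). These sets of controls also differed in odd or even position. On chips 1, 2 and 4, where treatment does not vary within a chip, the probe at base 2122 was higher at odd positions by 0.12, 0.10 and 0.12 (0.11 together, adjusted p = 0.060), close to its 0.13 on chip 3. The overlapping probe at base 2147 was higher at odd positions by 0.16 (adjusted p = 0.033) and differed by 0.12 on chip 3, and the probe at base 2355 was higher at odd positions by 0.077 (adjusted p = 0.34), less than its 0.33 on chip 3.

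Several further members, of which Sfrs2, Sf3b3 and Sf3b5 were chosen after their values were seen, differed on chip 3 at an adjusted p below 0.1 with at least a 1.1-fold change, a looser rule that 13 members met upward (8.27% of all tested probes did) and 5 downward (8.81%). Snrpa codes for the A protein of the U1 snRNP, and its probe at base 159 had 9.20, 9.64, 9.62 and 9.38 in ethanol-treated mice and 9.21, 9.17, 9.02 and 9.15 in controls, a difference of 0.32 ± 0.086 (adjusted p = 0.026). A single ethanol value was within the range of the controls, and the other Snrpa probe (base 1139) differed by 0.062 (adjusted p = 0.58). Hnrnpc (base 1245) was 0.23 ± 0.066 higher on chip 3 (adjusted p = 0.033, past the looser rule), against -0.13 ± 0.054 between chips, and the gene's other tested probe was at -0.017 and 0.062. Both tested probes of Sfrs2, an SR protein gene, were higher on chip 3, by 0.27 ± 0.061 and 0.22 ± 0.058, without overlap between the groups, and differed by -0.040 and -0.092 between chips.

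The SF3 genes had the lowest median of the families on chip 3, -0.23 over their 5 tested probes, against -0.00053 over all tested probes. All 5 were below 0, from -0.27 to -0.0040, and the low values were those of Sf3b probes. Those of Sf3a1 and Sf3a3 had exact permutation p-values of 0.91 and 0.69 (two-sided). Sf3b3 had 9.13, 9.37, 9.16 and 9.49 in ethanol-treated mice and 9.51, 9.57, 9.62 and 9.52 in controls, without overlap, a difference of -0.27 ± 0.076 (adjusted p = 0.034). Sf3b2 differed by -0.23 ± 0.066 (adjusted p = 0.038), also without overlap, and Sf3b5 by -0.26 ± 0.069 (adjusted p = 0.027). None of these passed 0.01. Between chips the same 3 probes differed by 0.047, 0.0074 and -0.023.

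Odd and even positions were compared on chips 1, 2 and 4, where treatment does not vary within a chip. Of the members, 2 were higher at odd positions (3.03%) against 1.75% of all tested probes and 0 were lower (7 at an unadjusted p below 0.05) against 1.87%. In both directions together, 12 members and 2904 of all tested probes were at an unadjusted p below 0.05. Lsm12 (base 640) was higher at odd positions by 0.31 (adjusted p = 0.0018) and a probe of Lsm6, a member of the Lsm rings that was chosen after its values were seen, by 0.20 (adjusted p = 0.0022). On chip 3, Lsm12 (base 640) had 8.28, 8.28, 8.34 and 8.32 in ethanol-treated mice, which were at odd positions, and 7.95, 7.98, 8.09 and 8.09 in controls, at even positions. This difference of 0.28 ± 0.059 (adjusted p = 0.0071) was about the size of that between positions with treatment held constant. The overlapping Snrpd1 probes were lower at odd positions, by 0.18 (base 43, adjusted p = 0.014) and 0.15 (base 25, adjusted p = 0.037). On chip 3 they were lower in the ethanol-treated mice by 0.16 ± 0.059 and 0.24 ± 0.063, with no overlap between groups. Hnrnpa2b1 (base 164), Hnrnph2 and Lsm12 (base 48) differed between odd and even positions by 0.044, -0.0036 and 0.081 (adjusted p = 0.81, 0.98 and 0.44). For Hnrnpa2b1 the mean joins chips that went both ways, with 0.15 and 0.23 on chips 1 and 2 and -0.25 on chip 4. By chip, the values were 0.065, -0.026 and -0.049 for Hnrnph2 and 0.064, 0.15 and 0.028 for Lsm12 (base 48). Over the 66 members the differences on chip 3 correlated at 0.41 with those between positions, and over all tested probes at 0.58. The olfactory bulb list was also higher at odd positions on these chips, with a median of 0.41 over its 6 probes, none of which passed.

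**Figure D5:**
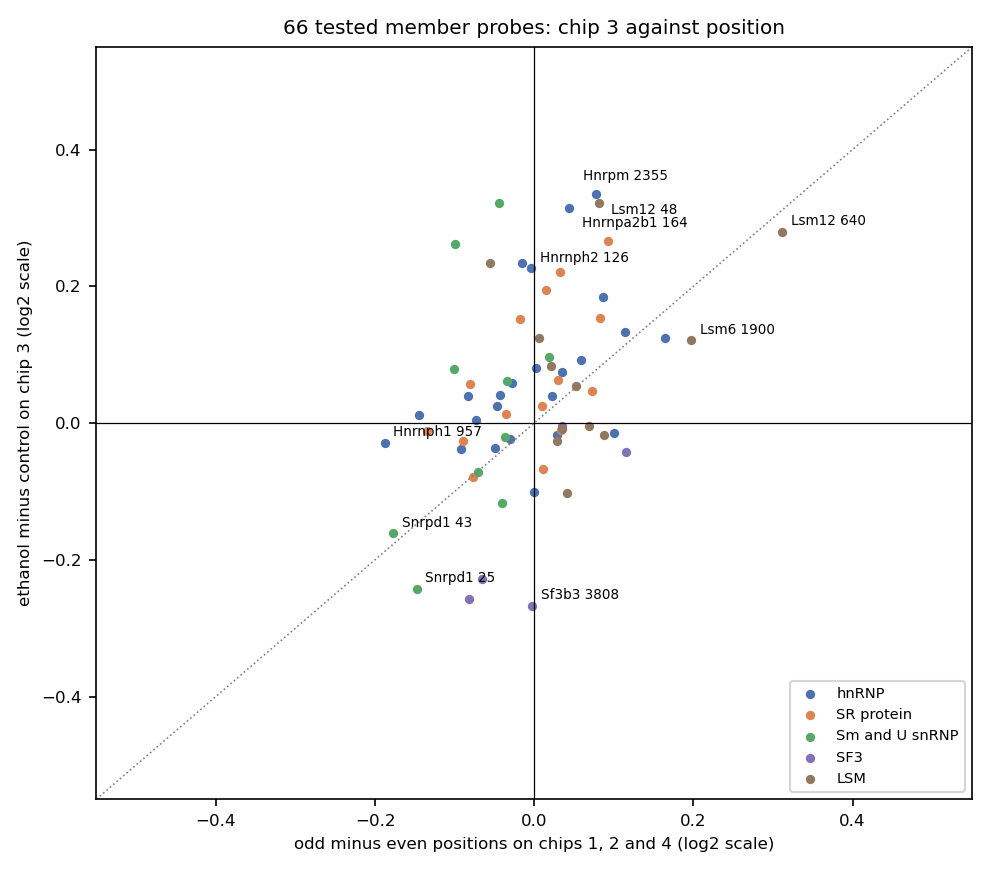
Difference on chip 3 (y axis, ethanol at odd minus control at even positions) against odd minus even positions on chips 1, 2 and 4 (x axis) for the 66 tested members, both on the log2 scale, colored by family. The dotted line marks equal differences. Lsm12 (base 640), the Snrpd1 probe at base 43 and, without labels, the Hnrpm probes at bases 2122 and 2147 lie near it, whereas Hnrnpa2b1 (base 164) and Hnrnph2 lie close to 0 on the x axis and Hnrpm (base 2355) lies above the line, at 0.077 on the x axis.

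When chip (as a block) and position entered 1 fit together, no member passed, against 0.0196% of all tested probes upward and 0% downward. At an unadjusted p below 0.05, 8 members were higher and 2 were lower, and 981 of all tested probes differed in either direction. In that fit Hnrnpa2b1 (base 164) differed by 0.27 (unadjusted p = 0.18), Hnrnph2 by 0.23 (unadjusted p = 0.048) and Lsm12 (base 48) by 0.24 (unadjusted p = 0.073). For the 2 Snrpd1 probes the values were 0.016 and -0.095, and for Lsm12 (base 640) the value was -0.032. As a measure of chips alone, chips 1 and 2, both of ethanol-treated mice, differed at 0 members, against 0.00982% of all tested probes upward and 0% downward. At an unadjusted p below 0.05 there were 13 members and 1516 of all tested probes. Between the controls of chips 3 and 4, 2 members were higher (3.03%) and 3 lower (4.55%), against 3.17% and 2.47% of all tested probes. These sets of controls also differed in odd or even position.

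Other genes of the machinery, from a list of 82, were tested with 77 probes of 51 genes over all 32 arrays. None rose (3 probes did at an unadjusted p below 0.05) and 7 probes of 6 genes fell (9.09%), against 3.6% and 4.67% of all tested probes, with a median of -0.0013 over the list. The lowest p-values were those of Thoc4, which links splicing to mRNA export (-0.22 ± 0.039 and -0.24 ± 0.045 at its 2 probes, adjusted p = 0.00022 and 0.00043), Txnl4a of the tri-snRNP (-0.20 ± 0.041, adjusted p = 0.001), Acin1 (-0.16 ± 0.035, adjusted p = 0.002) and Rbm8a of the exon junction complex (-0.17 ± 0.039, adjusted p = 0.0023). The value is that of 1 probe for Txnl4a and Acin1, whose further tested probes differed by -0.0084 and 0.0047 (adjusted p = 0.93 and 0.96) and by -0.029 (adjusted p = 0.66). On chip 3 the 5 probes with these lowest p-values differed by -0.13 to 0.027, with adjusted p-values of 0.21 or more. The other probes that passed over all arrays, of Phf5a and Gemin7, differed there by 0.029 and -0.037 (adjusted p = 0.80 and 0.76). Of 50 probes of 36 splicing regulators outside the rule, 5 rose (10%) and 1 fell (2%), against 3.6% and 4.67% of all tested probes. Cugbp1, a CELF protein that regulates exon choice and mRNA decay, rose by 0.44 ± 0.071 (adjusted p = 1e-04) and differed by 0.33 ± 0.085 on chip 3 (adjusted p = 0.022). Brunol4, of the same family, rose by 0.40 ± 0.065 (adjusted p = 9.3e-05), the neuronal Elavl4 by 0.27 ± 0.050 (adjusted p = 0.00029) and Khdrbs1, which codes for Sam68, by 0.23 ± 0.054 (adjusted p = 0.0031). On chip 3 these 3 probes differed by 0.18, 0.24 and -0.11. Over all arrays the other tested probes did not pass: they differed by 0.19 and 0.10 for Cugbp1 (adjusted p = 0.015 and 0.18), 0.16 for Brunol4 (0.094), 0.023 for Elavl4 (0.80) and 0.064 for Khdrbs1 (0.43). Taf15, which codes for an RNA-binding protein, fell by 0.23 ± 0.060 (adjusted p = 0.0058) and differed by -0.062 on chip 3.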

How the data were processed

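The authors deposited intensities without normalization, which give for every probe and array the mean over its beads on a linear scale. They also deposited a detection p-value per probe and, as other values, bead standard errors and bead numbers. The array software and its background step are not given in the sources used here, and 0 columns were without a sample. Signals were variance-stabilized after the method of the lumi package, which the submitters' processing notes name, and quantile-normalized over the 32 arrays. Probes detected at p below 0.01 on at least 24 arrays were tested by limma 3.58.1 (R 4.3.3), with Benjamini-Hochberg adjustment over all 10187 of them and a threshold of 0.01. On chip 3, exact permutation tests over the 8 arrays were added. Symbols were brought up to date through Entrez numbers or synonyms for all 103 members. Figures were drawn with matplotlib 3.10.9.

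The members and gene lists were chosen with earlier results of these data known. Named genes are those with a probe at an adjusted p below 0.01 over all arrays, the brightest probe of each family, the 3 members with the largest difference on chip 3 and, of the 2 lists of other splicing genes, the 4 with the lowest p in each direction; others are said to be chosen after their values were seen. The fits were also tested on simulated data. The alternatives tried were a plain log2 signal, normexp (offset 16), scaling to the median, all probes, only probes detected on all arrays, a looser threshold, array weights, chip as a block, odd or even position as a covariate or apart, a spread pooled over all arrays for chip 3, and leaving out control 66 or each array of chip 3. The replicates are separate mice, and the number of arrays limits the precision.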

Additional observations from a re-analysis of the deposited data

Results flagged for a closer look

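For hnRNP M the difference on chip 3 was unequal to that between chips, by 0.50 at the probe at base 2355 (0.33 on chip 3 and -0.17 between chips, adjusted p = 0.0038) and by 0.37 at the probe at base 2122 (0.13 and -0.23, adjusted p = 0.0073). Single arrays lay apart from their group, by the gap to the nearest of the others, in 5 of 66 groups of 4 or 8 arrays tested over the 22 named probes, and chance gives about 5%. Ethanol-treated mouse 50 had 11.88 for Hnrpm (base 2355) on chip 3, where the nearest was 11.72, and control 55 had 10.53 for Hnrnph1 (base 957), where the nearest was 10.42. On chip 4, control 57 had 10.12 for Hnrnph1 (base 1268) and 7.77 for Hnrnph1 (base 579), where the nearest were 10.38 and 8.11, and control 62 had 8.27 for Hnrnpa2b1 (base 1340), where the nearest was 8.01.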

How the results depend on the processing

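Over all 32 arrays, the counts of members higher and lower were 5 and 2. They were 2 and 0 with median scaling, 14 and 4 at the looser threshold (adjusted p below 0.1 and a fold of 1.1 or more), and 0 and 0 with chip as a fixed block, with chip as a random block or at even positions alone (limma; at an unadjusted p below 0.05 these 3 fits had 11, 14 and 8 higher and 4, 5 and 5 lower). The count higher was 3 with all probes of the array, with probes detected on all 32 arrays or without control 66, and 8 with odd or even position as a covariate, and the count lower was 1 at odd positions alone. The splits at odd and at even positions were chosen after seeing the data. In the fits with unadjusted counts, all tested probes were not counted at that threshold. Over all tested probes the calls moved too, from 367 higher and 476 lower. They were 104 and 31 with median scaling, 761 and 714 at the looser threshold, and 243 and 339 without control 66. With chip as a fixed block they were 13 and 8, and as a random block 24 and 54. At even positions they were 2 and 2, at odd positions 294 and 156, and with position as a covariate 504 and 470. All probes gave 271 and 369, and those detected on all arrays 309 and 451.

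On chip 3, 2 and 0 became 0 higher with normexp background, median scaling or a spread pooled over all arrays (13, 13 and 10 at an unadjusted p below 0.05), 1 higher with probes detected on all arrays, and 13 and 5 at the looser threshold. For normexp, median scaling and the pooled spread, all tested probes were not counted at an unadjusted p below 0.05. Leaving out 1 array gave 0 to 4 higher and 0 to 1 lower. Between chips, 9 and 3 became 5 and 0 with median scaling, 5 higher with all probes of the array, and 16 and 6 at the looser threshold. Over all tested probes, chip 3 had 153 higher and 178 lower calls. These became 0 and 0 with normexp, 37 and 105 with median scaling, and 2 and 1 with the pooled spread. They became 145 and 175 with probes detected on all arrays, and 842 and 897 at the looser threshold. Between chips, 604 and 601 became 419 and 27 with median scaling, 507 and 547 with all probes, and 1202 and 1147 at the looser threshold. With median scaling, the share of higher among all calls moved from 50.1% to 93.9% between chips and from 46.2% to 26.1% on chip 3.

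Of the 22 named probes, the sign over all arrays turned for 7 in some setting: with chip as a fixed block for Hnrnpa2b1 base 1340 (0.040), Hnrnpc base 1245 (0.23), Hnrnph1 base 957 (-0.029), Hnrpm base 2355 (0.33) and Hnrpm base 2122 (0.13); with chip as a random block for Hnrnpc (0.030) and Hnrpm base 2355 (0.056); at even positions for Hnrnpc (0.0025); with median scaling for Lsm4 (from -0.032 to 0.0042, while the median of all tested probes moved from -0.0032 to 0.030); and for Hnrpm base 2147 (main value 0.0014) with array weights (-0.018), position as a covariate (-0.042), without control 66 (-0.022) and at odd positions (-0.15). With chip as a fixed block, each value is by design the difference on the only chip with both groups. Turns in that setting therefore restate how that chip differed from all arrays together. The cause of the turns was not tested. Hnrnpa2b1 base 164, Hnrnph2 and Lsm12 base 48 stayed positive in every setting run, at 0.30 to 0.63, 0.22 to 0.79 and 0.17 to 0.51, with adjusted p-values up to 0.31, 0.19 and 0.15. No paired analysis was possible because the mice of the 2 groups share no replicate numbers. Depth is not defined for these arrays, and signals near background limit the probes that were not tested.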
